A study of Homo sapiens with 9 samples.

Results

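Cancer-testis antigens are proteins of male germ cells that many tumours, melanoma above all, also make. Of these families and the ROPN1 pair, 37 genes were read here in MDA-MB435S melanoma cells. The cells carried an empty vector (EV), wild-type WWOX or the WWOX-WFPA mutant. Of the 37 genes, 5 differed in some comparison and 32 did not pass the limits of the test in any. Single comparisons had 3 to 5 such genes, beside 441 to 935 of all 19775 genes, and nothing is read from these counts about the families. ROPN1 and ROPN1B rose in WWOX cells by 5.62 and 5.61 on the log2 scale over EV cells, whose levels are low enough that the fold is uncertain. PAGE4 was lower in WWOX cells than in both other groups, and MAGEC1 was lower in WFPA cells. SSX1 was higher in WFPA cells, but its signal was low in every group. Probe sets that match several GAGE genes at once read 6.18 to 6.91 log2 units higher in WFPA than in EV cells, again from low EV levels.

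The genes were taken by name: every gene with a symbol that begins with MAGEA, MAGEB, MAGEC, MAGED, CTAG, SSX, PAGE, XAGE or GAGE, and PRAME, ROPN1, ROPN1B, SPANXC, DDX43, CTCFL, BAGE and SYCP1, without SSX2IP. Of 19775 genes with a probe set of their own, 37 met this rule, on 47 probe sets. They are 7 MAGEA, 6 MAGEB, 3 MAGEC, 2 MAGED, 3 SSX, 3 PAGE and 3 XAGE genes, GAGE1, 3 genes caught by the letters CTAG, and CTCFL, DDX43, PRAME, ROPN1, ROPN1B and SYCP1. Among the CTAG symbols, CTAGE1 and CTAGE11P belong to another gene family than CTAG2. A further 34 genes of these families, 12 of them GAGE genes, are read only by 28 probe sets that name several genes. These are described apart. SPANXC is among the 34, and BAGE has no probe set under that name in the annotation used. In the RefSeq annotation 29 of the 37 genes lie on the X chromosome, and ROPN1 and ROPN1B both lie on chromosome 3.

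The study compared 3 groups of MDA-MB435S cells, a metastatic melanoma line, with 3 Affymetrix U133 Plus 2.0 arrays each. EV cells carry the empty vector, WWOX cells wild-type WWOX, a tumour suppressor with WW domains that bind partner proteins, and WFPA cells a WWOX mutant whose binding to other proteins is disrupted. The vectors were lentiviral, stable clones were selected with G418, and all groups were grown alike in DMEM with serum. Whether a group's 3 arrays stem from 1 culture or several is not stated, so the p-values measure only the spread between arrays, and construct and clone cannot be told apart. The lentiviral vector field of the deposited labels goes against the sample titles: it names wild-type WWOX for the EV arrays and no construct for the WWOX arrays, and the EV titles add wox+. The titles were followed. At its brightest probe set the WWOX transcript itself had group means of 8.94 (EV), 10.24 (WFPA) and 10.66 (WWOX), with an SD of 0.284, 0.118 and 0.276 over 3 arrays. This probe set and another (4.49, 7.64 and 8.18) were called higher in WFPA and in WWOX cells than in EV cells. The other 3 of its 5 probe sets were not called: the means were 9.11, 8.38 and 8.87 on one, 5.98, 5.98 and 6.11 on another, and 3.91, 5.5 and 5.13 on the last.

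MAGE proteins bind RING ubiquitin ligases and alter what these act on, and the MAGEA, MAGEB and MAGEC branches are kept to the testis while MAGED genes are active in many tissues. SSX proteins repress transcription together with Polycomb complexes, and PRAME is a leucine-rich adaptor of a cullin ligase that restrains retinoic acid receptor signalling. ROPN1 and ROPN1B encode ropporins, which anchor kinase scaffolds in the fibrous sheath of the sperm tail. Many promoters of these genes are silenced by DNA methylation in somatic cells and lose that silencing in tumours.

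All values are log2 expression, and changes are differences of log2 values between group means. A change is called here at a limma Benjamini-Hochberg adjusted p under 0.05, over 54613 probe sets, and at least 2-fold. The file gives no detection calls. As a guide, the median of all probe sets is 6.03, the lower quartile lies at 4.225 to 4.337 on the 9 arrays, and 82 olfactory receptor genes, which melanoma cells mostly lack, have a median of 3.82, a 90th percentile of 5.56 and a highest value of 6.57. Probe sets differ in how well they bind, so levels were set against these marks and not ranked gene against gene. On these arrays, fewer cells with a transcript and less transcript per cell cannot be told apart.

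The genes split into a bright and a dim set. Of 37 genes, 17 lay above the median of all probe sets in at least 1 group and 20 did not. In all 3 groups 14 lay under the lower quartile and 5 lay above 11. The bright ones were CTAG2 (an NY-ESO-1 relative), MAGEA1, MAGEA6, MAGEA12 and MAGEC2. CTAG2 had means of 13.21, 13.13 and 13.32 in EV, WFPA and WWOX cells, with an SD of 0.138, 0.0442 and 0.215 (n = 3 arrays). MAGEA6 read 13.52, 13.43 and 13.66, MAGEA12 12.56, 12.47 and 12.72, and MAGEA1 11.29, 11.16 and 11.32 in the same order. In MAGEC2 the means were 11.97, 11.97 and 11.89. The level of each of these 5 was high in every group, and none was called. Of the 32 genes not called in any comparison, 13 lay above the median in some group, with changes from -0.3 to 0.65 between WWOX and EV cells and from -0.13 to 0.62 between WFPA and EV cells. The other 19 lay below it, with means of 2.27 to 5.63. MAGEA4, MAGEB2 and CTCFL, a germ cell relative of CTCF, were among those at 2.66 to 3.48 in all groups.

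**Figure D1:**
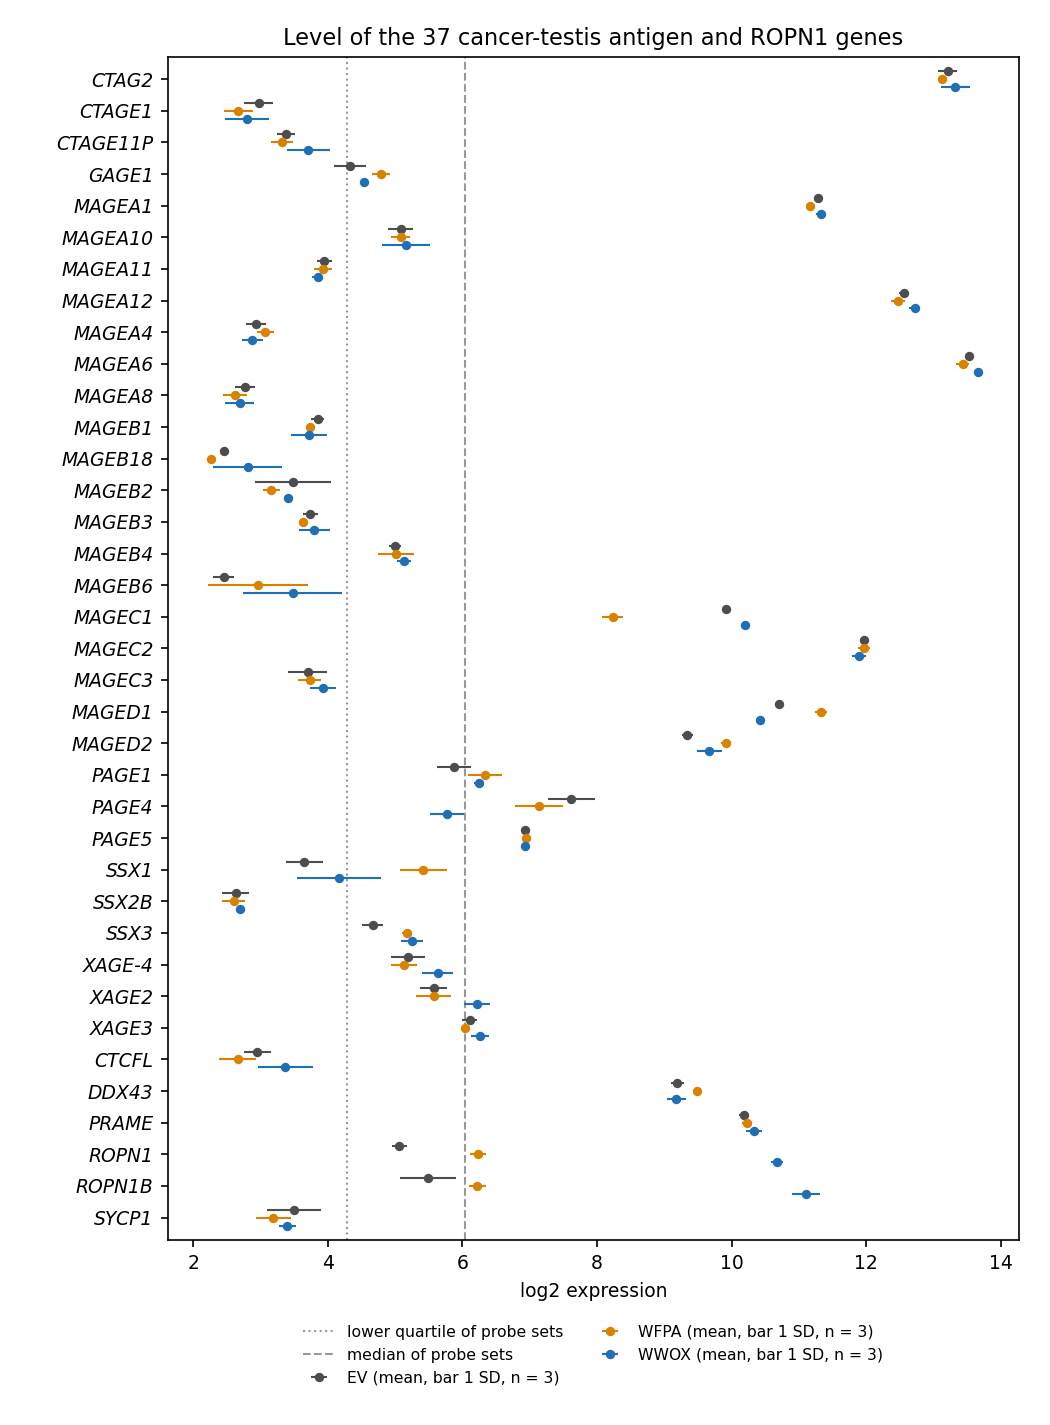
Log2 expression (x axis) of the 37 genes (y axis) in EV, WFPA and WWOX cells, as mean and SD of 3 arrays, with the lower quartile and median of all probe sets as lines. ROPN1 and ROPN1B move from 5.06 and 5.49 in EV cells to 10.68 and 11.11 in WWOX cells, and the bright MAGEA genes and CTAG2 stay in place.

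Between WWOX and EV cells, 2 of 37 genes were called higher and 1 lower, beside 2.11% and 1.79% of all 19775 genes. Between WWOX and WFPA cells 3 were higher and 2 lower, beside 2.01% and 2.72%. Between WFPA and EV cells 2 were higher and 1 lower, beside 1.54% and 0.693%. Against the mean of EV and WFPA cells, 3 were higher and 1 lower in WWOX cells, beside 1.94% and 2.06%. With so few genes each such share moves by a gene or so, and nothing is read from it about the families. The median change over the 37 genes was 0.14, 0.13, -0.02 and 0.12 in these comparisons, and that over all genes was 0.03, 0.07, -0.04 and 0.04. The comparisons share arrays, so they are not independent of each other.

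**Figure D2:**
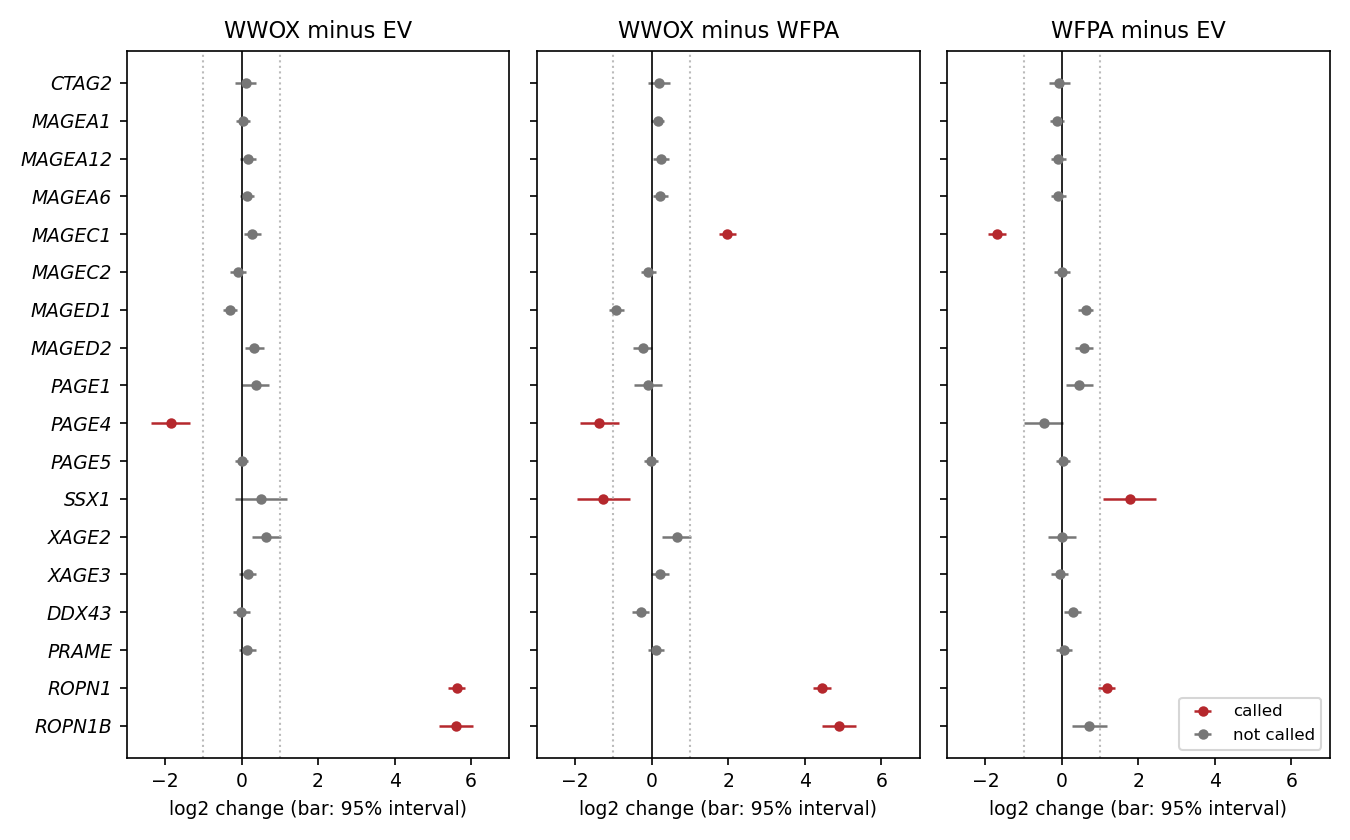
Log2 change (x axis) with 95% interval between the group means for 18 genes, those above the median of all probe sets in some group and SSX1, with called changes in red and dotted lines at 2-fold. ROPN1 and ROPN1B stand far to the right in WWOX cells against both groups, MAGEC1 is lower and SSX1 higher in WFPA cells, and MAGEA, MAGEC2 and PRAME intervals lie within 2-fold.

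ROPN1 read 5.08, 5.16 and 4.93 on the EV arrays, 6.26, 6.10 and 6.33 on the WFPA arrays and 10.62, 10.78 and 10.63 on the WWOX arrays. No group overlapped another. The change between WWOX and EV cells was 5.62 (limma standard error, SE, 0.101, adjusted p = 3.69e-08), that between WWOX and WFPA cells was 4.45 (adjusted p = 7.02e-08), and that between WFPA and EV cells was 1.17, 2.25-fold (SE 0.101, limma adjusted p = 0.000259). ROPN1B, its paralog, read 5.6, 5.84 and 5.03 on the EV arrays, 6.29, 6.07 and 6.28 on the WFPA arrays and 11.18, 11.27 and 10.87 on the WWOX arrays. ROPN1B rose by 5.61 against EV cells (SE 0.199, limma adjusted p = 4.46e-07) and by 4.89 against WFPA cells (adjusted p = 1.13e-06). Its WFPA arrays also lay above the EV arrays, by 0.72 (adjusted p = 0.0692), which is not called. The EV means, 5.06 and 5.49, lie under the 90th percentile of the olfactory receptor genes, so the size of both rises is uncertain.

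Both genes are read by probe sets whose probes also match other transcripts (suffix _x_at), so the signal of one may hold that of the other. A second such probe set of ROPN1 read 4.94, 5.92 and 10.61 in EV, WFPA and WWOX cells, where the change between WFPA and EV cells, 0.98, falls just under 2-fold and is not called. Another, with the plain suffix _at, read 4.27, 4.94 and 5.35: a rise of 1.08 between EV and WWOX cells (limma adjusted p = 0.00216) that is called, but a far smaller one, and in WFPA cells 0.67, under 2-fold. Its change between WWOX and WFPA cells was 0.41 (limma adjusted p = 0.106) and was not called. The 3 probe sets therefore share a direction and differ in size. As neighbours, the 3 nearest measured genes on each side were taken that are not among the 37 genes and have a probe set of their own, so nearer genes of the same families were passed over. None of these neighbours of ROPN1 or of ROPN1B was called by limma or by the plain 1-way model in any comparison. Between WWOX and EV cells 1 of 6 and 3 of 6 had an unadjusted p under 0.05, and their median changes were 0.10 and 0.03. Between WWOX and WFPA cells 4 of 6 did for each gene. ITGB5 beside ROPN1 and SNX4 beside ROPN1B rose by 0.69 and 0.49 between EV and WWOX cells (limma adjusted p = 0.0031 and 0.0477), under 2-fold. ALDH1L1 beside ROPN1B fell by 0.47 (limma adjusted p = 0.0543).

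**Figure D3:**
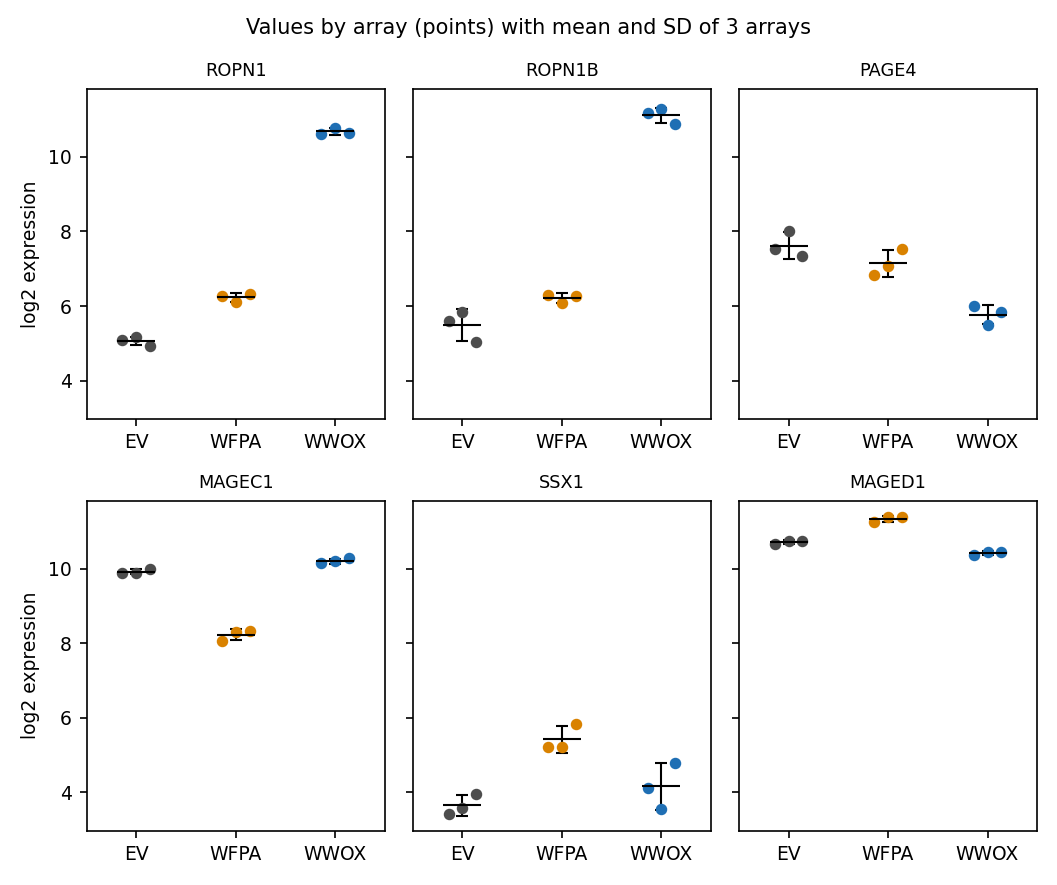
Log2 expression (y axis) by array for the 5 called genes and MAGED1 in EV, WFPA and WWOX cells (points are arrays, bars the mean and SD of 3). ROPN1 and ROPN1B stand at 10.62 to 11.27 on WWOX arrays, and no EV array of either exceeds 5.84.

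The promoters of the pair are shown because both genes moved together. The 250 bases before the start, from RefSeq on GRCh38.p14, are printed 5′ to 3′ with each CG in capitals.
ROPN1, chr3:123992125-123992374, minus strand: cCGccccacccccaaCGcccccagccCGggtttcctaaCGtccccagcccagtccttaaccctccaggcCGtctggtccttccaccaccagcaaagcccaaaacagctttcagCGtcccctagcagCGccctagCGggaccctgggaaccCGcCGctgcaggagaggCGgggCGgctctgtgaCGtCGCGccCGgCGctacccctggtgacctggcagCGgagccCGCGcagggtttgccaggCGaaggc
ROPN1B, chr3:125968928-125969177, plus strand: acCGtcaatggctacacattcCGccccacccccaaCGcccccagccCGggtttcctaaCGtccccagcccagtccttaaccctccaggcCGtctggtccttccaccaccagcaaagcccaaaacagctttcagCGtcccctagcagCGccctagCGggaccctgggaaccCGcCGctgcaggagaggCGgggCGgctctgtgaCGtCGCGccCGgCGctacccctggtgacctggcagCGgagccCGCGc
Bases 1 to 230 of the printed ROPN1 sequence are the same, letter for letter, as bases 21 to 250 of that of ROPN1B, and over the whole 300-base windows, 250 before and 50 after the start, the identical run is 280 bases long. The CpG ratio, the number of CG pairs over that which the C and G content gives, was 0.841 and 0.84 in these windows, against a median of 0.579 over all 35116 promoter windows. RefSeq lists a second start of ROPN1 whose window holds 4 CG pairs, a ratio of 0.411.

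PAGE4, a small disordered protein of prostate and testis, read 7.52, 8.02 and 7.33 on the EV arrays, 6.83, 7.06 and 7.53 on the WFPA arrays and 5.99, 5.50 and 5.83 on the WWOX arrays. WWOX arrays lay below all others, and EV and WFPA arrays overlapped. PAGE4 fell by 1.85, 3.6-fold, between EV and WWOX cells (SE 0.227, limma adjusted p = 0.00093) and by 1.37 between WFPA and WWOX cells (adjusted p = 0.00372). Its relatives PAGE1 (5.88, 6.34 and 6.25) and PAGE5 (6.93, 6.95 and 6.93) were not called. The 6 neighbours of PAGE4 taken in this way leave out the GAGE genes and PAGE1. Among them CLCN5, a chloride transporter, rose by 1.44 in WWOX cells against EV cells. The other 5 were not called, but USP27X-DT fell by 0.68 and CCDC22 by 0.54 there, each under 2-fold (limma adjusted p = 0.0132 and 0.0159). Of the 6, 3 had an unadjusted p under 0.05 between WWOX and EV cells.

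MAGEC1, a MAGE of the X chromosome, read 9.89, 9.89 and 9.99 on the EV arrays, 8.05, 8.31 and 8.32 on the WFPA arrays and 10.14, 10.19 and 10.27 on the WWOX arrays. WFPA arrays lay below all the others. MAGEC1 fell by 1.7, 3.24-fold, between EV and WFPA cells (SE 0.0985, limma adjusted p = 2.42e-05) and was 1.98 higher in WWOX than in WFPA cells (adjusted p = 3.53e-06). Its change between WWOX and EV cells, 0.28, was not called (adjusted p = 0.107). None of its 6 neighbours, which leave out the nearer MAGEC3 and MAGEC2, was called by limma, and 0 had an unadjusted p under 0.05 in any comparison. MAGEC2 did not follow it, as given above, and MAGEC3 read 3.70, 3.73 and 3.93.

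SSX1, the partner of SS18 in the fusion of synovial sarcoma, read 3.43, 3.58 and 3.96 on the EV arrays, 5.23, 5.21 and 5.83 on the WFPA arrays and 4.11, 3.56 and 4.80 on the WWOX arrays. The WFPA arrays lay above the others, while WWOX and EV arrays overlapped. SSX1 rose by 1.77, 3.4-fold, between EV and WFPA cells (SE 0.303, limma adjusted p = 0.00933) and was 1.26 lower in WWOX than in WFPA cells (adjusted p = 0.0217). A second probe set of SSX1 read 3.01, 4.34 and 2.93 and was called in the same 2 comparisons. EV levels lie under the lower quartile of the arrays, so the size of the rise is uncertain. On the first probe set, which has the suffix _x_at, the means were 3.65, 5.42 and 4.16 in EV, WFPA and WWOX cells. All lie under the 90th percentile of the olfactory receptor genes, 5.56. Without WFPA replicate 3 or without WWOX replicate 2 the change between WWOX and WFPA cells was no longer called (adjusted p = 0.0814 and 0.0537 from limma), and the plain 1-way model called neither change of SSX1. Of its 6 neighbours, which leave out the nearer SSX genes, the zinc finger gene ZNF182 fell by 1.05 between EV and WWOX cells, and the rest were not called.

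Some genes passed the adjusted p but not the fold limit. MAGED1, an adaptor of neurotrophin receptor signalling, read 10.71, 11.33 and 10.42 in EV, WFPA and WWOX cells. Its WFPA mean lay 0.62 above that of EV cells (limma adjusted p = 0.00312). The WWOX mean lay 0.92 below that of WFPA cells (limma adjusted p = 0.000138). Arrays did not overlap in either comparison. MAGED2 lay 0.57 higher in WFPA cells than in EV cells (adjusted p = 0.0154). XAGE2 was 0.65 higher in WWOX cells than in EV cells (limma adjusted p = 0.0336). SSX3 was 0.58 higher there (adjusted p = 0.011), while its 2 other probe sets gave 0.21 and 0.14 (adjusted p = 0.655 and 0.386). In WFPA cells SSX3 was 0.5 higher than in EV cells (limma adjusted p = 0.0336). Its 2 other probe sets gave 0.43 and 0.39 in WFPA cells (adjusted p = 0.397 and 0.0375). PRAME read 10.18, 10.23 and 10.33 and DDX43, a helicase, 9.19, 9.48 and 9.18. Neither was called. PAGE5 holds the same value, 6.95, on all 3 WFPA arrays.

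GAGE genes are near-identical copies on the X chromosome, and GAGE1 alone has a probe set of its own. That probe set read 4.33, 4.79 and 4.54 in EV, WFPA and WWOX cells and was not called in any comparison. Each of the 4 probe sets that name 5 or more GAGE genes together was called higher in WFPA cells, by 6.18 to 6.91 log2 units over EV cells, where 1.26% of all probe sets were called higher. In EV cells the probe set that names 10 GAGE genes read 5.59, 6.72 and 5.22 on the 3 arrays. In WFPA cells it read 12.76, 12.71 and 12.80, and in WWOX cells 8.10, 7.96 and 8.08. Its change between WFPA and EV cells was 6.91 (SE 0.312, limma adjusted p = 5.39e-06), the rise of rank 2 among 54613 probe sets. Those of 5, 12 and 13 GAGE genes ranked 5, 6 and 8. Between WWOX and EV cells the 4 probe sets rose by 2.09 to 2.21 (1.66% of all probe sets were called higher), and between WFPA and WWOX cells they fell by 4.06 to 4.71 in WWOX cells (2.47% called lower). In each of the 4 the EV arrays lay below the WWOX arrays and these below the WFPA arrays.

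The rise of the GAGE probe sets cannot be assigned to a copy. The probe set of 12 genes has GAGE1 among them, and the WFPA level of GAGE1's own probe set (4.79) lies under the median of all probe sets. The 2 kinds of probe set therefore differ in level, though on both the WFPA arrays lay above the EV arrays. On GAGE1's own probe set that rise was 0.46 (limma adjusted p = 0.0714). EV replicate 2 was higher than the other EV arrays on all 4 probe sets, at 7.20 against 5.86 and 6.0 on that of 12 genes. Without it the rise between EV and WFPA cells was 6.74 to 7.35 on the 4 probe sets. Their EV means, 4.62 to 6.35, lie about the lower quartile and the median, so the fold of the rise is uncertain while the WFPA means, 11.11 to 12.76, are far above both marks.

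**Figure D4:**
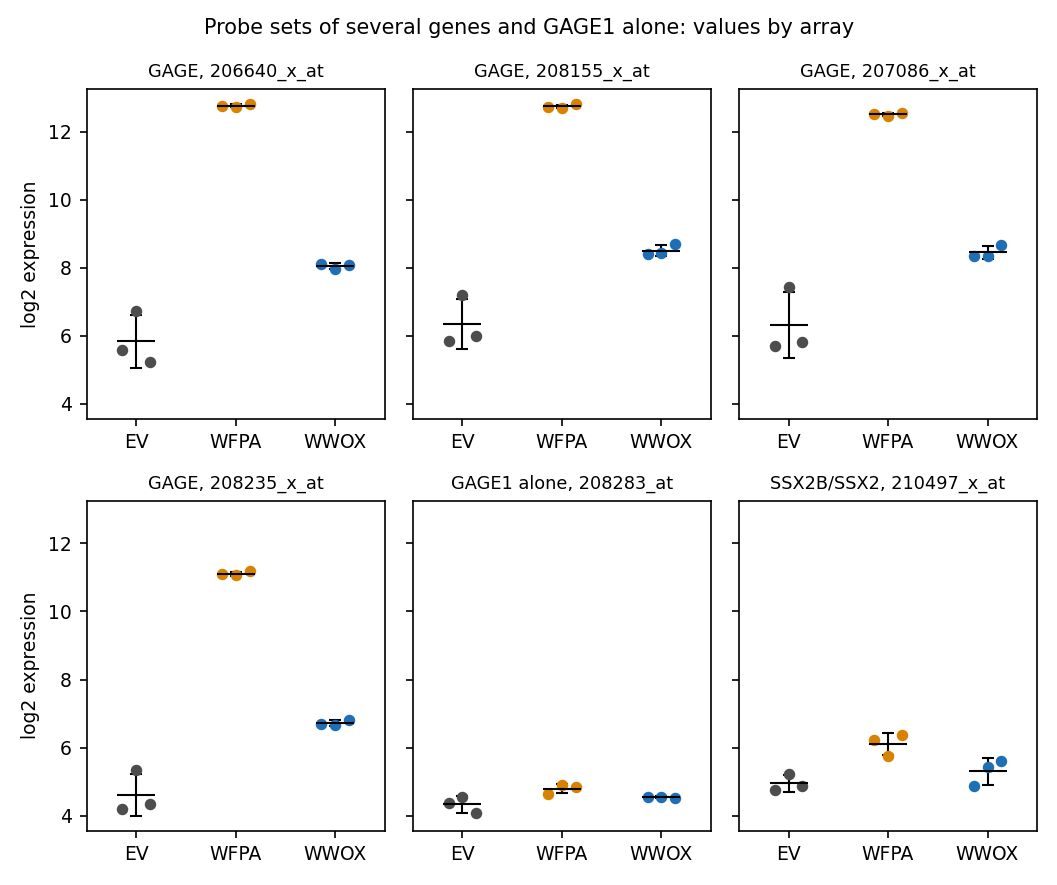
Log2 expression (y axis) by array for 4 probe sets of several GAGE genes, for the probe set of GAGE1 alone and for 1 of SSX2B and SSX2, in EV, WFPA and WWOX cells (points are arrays, bars the mean and SD of 3). GAGE signal rises from 4.62 to 6.35 in EV cells to 11.11 to 12.76 in WFPA cells, with WWOX cells between, and the probe set of GAGE1 alone has group means of 4.33 to 4.79.

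In the RefSeq order of the X chromosome the GAGE genes lie between PPP1R3F on one side and PAGE1 and PAGE4 on the other. PPP1R3F read 6.29, 5.96 and 6.13 and was not called, PAGE1 was not called, and PAGE4 did not pass between WFPA and EV cells. The GAGE promoters are shown because the copies cannot be separated by the array. RefSeq gives 12 windows for 11 GAGE genes, of which 8 hold one and the same 300 bases and all 12 share a run of 235 bases. The first line below gives the 250 bases before the start from a window of the commonest sequence, with each CG in capitals. The second gives those of the first window of PAGE4, with the letters CACGTG in capitals.
GAGE1, chrX:49598770-49599019, plus strand: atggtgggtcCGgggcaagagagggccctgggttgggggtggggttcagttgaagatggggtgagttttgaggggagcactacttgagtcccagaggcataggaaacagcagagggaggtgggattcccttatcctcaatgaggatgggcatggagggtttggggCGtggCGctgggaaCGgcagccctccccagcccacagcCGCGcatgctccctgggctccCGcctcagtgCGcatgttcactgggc
PAGE4, chrX:49829010-49829259, plus strand: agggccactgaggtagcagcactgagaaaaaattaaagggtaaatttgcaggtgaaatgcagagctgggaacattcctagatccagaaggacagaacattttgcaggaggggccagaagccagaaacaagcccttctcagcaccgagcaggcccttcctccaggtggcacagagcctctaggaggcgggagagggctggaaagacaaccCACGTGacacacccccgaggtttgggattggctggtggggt
The letters CACGTG, which read the same on both strands and are the core that basic helix-loop-helix factors bind, were in all 12 GAGE windows, in the 50 bases after the start that are not printed, and in both PAGE4 windows, before it. Of the 37 genes 31 had a window. With the window of lowest coordinate taken for each, 5 of 31 held CACGTG (16.1%), against 7.26% of all 35116 windows, and they were GAGE1, PAGE1, PAGE4, PAGE5 and ROPN1 at its second start. The count depends on this choice: the ROPN1 window printed above lacks CACGTG, and XAGE3 holds it only in the window not taken. The letters CCGGAA on either strand, the core of ETS factors, were in 4 of 31 (12.9%), against 17.2% of all windows. The median CpG ratio was 0.45 in the 31 windows and 0.444 in the GAGE windows, and that of PAGE4 was 0.187. A match is a description of the letters and not a site.

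Most of the other shared probe sets were bright and not called, or dim. The 3 that name CTAG1A and CTAG1B together, genes of NY-ESO-1, had group means of 12.27 to 13.47, and the one of MAGEA3 and MAGEA6 read 13.51, 13.39 and 13.68. One probe set of SSX2B and SSX2 lay 1.15 higher in WFPA cells than in EV cells (limma adjusted p = 0.018, EV mean 4.95, WFPA mean 6.11), and 4 of the 9 fits without 1 array ended this call. A probe set of SSX4 and SSX4B read 3.52 and 3.71 on WWOX replicates 1 and 2 and 6.28 on WWOX replicate 3, and was not called.

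Other genes of related lists were counted the same way. Of 71 further cancer-testis genes, 3 were called higher and 4 lower between WWOX and EV cells, where 2.11% and 1.79% of all genes were. ACTL8, an actin-like gene, fell by 4.29 (from 10.53 to 6.24), LYPD6B by 3.61 and IL13RA2, a decoy interleukin receptor, by 3.23, while LUZP4 rose by 3.03. LYPD6B and ACTL8 were also called lower in WFPA cells, by 3.52 and 2.75. Of 33 sperm tail genes, none was called higher in WWOX cells and 2 were called lower, CATSPER1, a sperm calcium channel, by 1.10 and AKAP14 by 1.76. Of these 33, 9 had an unadjusted p under 0.05. ROPN1 and ROPN1B, counted among the 37 genes, are not on that list. Of 27 meiotic genes, SHOC1 alone was called, at 9.88, 10.96 and 6.95 in EV, WFPA and WWOX cells. It was called lower in WWOX than in EV and in WFPA cells, beside 1.79% and 2.72% of all genes. Between WFPA and EV cells it was called higher, beside 1.54%. In these 3 comparisons 4, 11 and 4 of the 27 had an unadjusted p under 0.05.

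Genes of partner proteins were counted too. Of 16 retinoic acid receptor and PRAME ligase genes, RARB was called higher by 1.11 in WWOX and by 1.21 in WFPA cells against EV cells, beside 2.11% and 1.54% of all genes. Of 16 genes listed for partners of MAGE proteins, which are not all ligases, MSX2 fell by 2.63 between EV and WWOX cells. No other was called there, beside 1.79% of all genes called lower. Of the 16, 8 had an unadjusted p under 0.05 there, and 11 did between WWOX and WFPA cells. Of 26 SSX partner and Polycomb genes none was called between WWOX and EV cells by limma, while 8 had an unadjusted p under 0.05, and none was called by the plain 1-way model. Of 41 DNA methylation and heterochromatin genes, GADD45A fell by 1.04 between EV and WWOX cells and CBX5, a heterochromatin protein, by 1.03 between EV and WFPA cells, beside 1.79% and 0.693% of all genes called lower there.

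Markers of other cell types were read alongside. None of 33 male germ cell genes was called in any comparison by limma, 2 had an unadjusted p under 0.05 between WWOX and EV cells, 6 between WWOX and WFPA cells and 3 between WFPA and EV cells, and the plain 1-way model called none. The 10 defining markers of male germ cells had an average of 4.70 to 4.94 on every array, and DAZL and DDX4, which mark germ cells, read 2.27 to 4.07. Of 14 melanocyte and neural crest markers, 4 were called higher in WWOX cells than in EV cells: MITF by 1.56, SOX10 by 5.66, S100B by 6.67 and S100A1 by 2.87, beside 2.11% of all genes called higher. The mean over the 14 was 6.54 to 6.58 on EV, 6.47 to 6.62 on WFPA and 7.72 to 7.87 on WWOX arrays. Their median change between WWOX and EV cells was only 0.28, with changes from -0.76 to 6.67. PMEL, MLANA, TYR and TYRP1, the pigment genes, read 2.21 to 5.91 in all groups, while MITF read 11.40 to 13.43. Among markers of other cells, between WWOX and EV cells, 1 of 13 epithelial markers was called higher and 2 lower, 4 of 12 fibroblast markers were called higher, and 1 of 9 haematopoietic markers was called lower. Of all genes 2.11% were called higher and 1.79% lower there. Changes ran from -1.65 to 5.03 in the epithelial, -0.57 to 4.38 in the fibroblast and -4.4 to 0.89 in the haematopoietic markers. None of 7 endothelial markers was called there by limma or the plain 1-way model, and 3 had an unadjusted p under 0.05. The part of all these markers in the rise of ROPN1 and ROPN1B was not tested.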

How the data were processed

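Gene expression was measured on 9 Affymetrix U133 Plus 2.0 arrays, 3 each of EV, WFPA and WWOX cells. The authors deposited log2 intensities, on 1 scale for all arrays, made with Partek Genomics Suite 6.5. Background correction and normalization are not given in the sources used here, and no further normalization was applied. Of 54675 probe sets, 62 array controls were left out and 54613 were tested, of which 41091 name 1 gene, 1801 several and 11721 none. The platform annotation was updated through gene identifiers to RefSeq symbols. The probe set with the highest mean stands for a gene.

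Group means were fitted in limma 3.58.1 (R 4.3.3), with 6 residual and 3.04 prior degrees of freedom. Calls needed a change of 2-fold or more and an adjusted p (Benjamini-Hochberg) under 0.05. Precision is limited by the number of arrays, and SD is that of 3 arrays. The genes and lists were chosen with earlier results of these data known. All 37 genes could be named, in full where called or above the median level, with up to 4 called genes per list and the neighbours of called genes. Protein sequences were not analysed here. Tables used pandas 2.3.3 and numpy 2.4.6 in Python 3.11.15, and plots used matplotlib 3.10.9. Alternatives were 2 other choices of probe set per gene, median centring, quantile normalization, 2 filters on dim probe sets, limma-trend, a robust prior, a plain 1-way model, Bonferroni adjustment, 4-fold and no fold limit, replicate number as a block and each array left out.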

Additional observations from a re-analysis of the deposited data

How the results depend on the processing

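The number of the 37 genes called was 3 between WWOX and EV cells, 5 between WWOX and WFPA cells, 3 between WFPA and EV cells and 4 against the mean of both. Without a fold limit these counts became 5, 7, 6 and 6, and with Bonferroni adjustment 2, 3, 1 and 3. With the 4-fold limit of the methods they became 2, 2, 0 and 2. The 0 by limma was between WFPA and EV cells, where 10 of 37 genes had an unadjusted p under 0.05. There the plain 1-way model called 2 at 2-fold. PAGE4 and SSX1 kept no call with Bonferroni adjustment or the 4-fold limit, and MAGEC1 kept none with the 4-fold limit. Leaving out each array in turn gave 3 to 3, 4 to 5, 3 to 3 and 4 to 4 genes. The 4 came without WFPA replicate 3 or WWOX replicate 2, where SSX1 dropped out.

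Of 31 called changes of single genes and shared probe sets, 13 were called under every one of up to 22 settings that tested them, 18 lost the call under at least 1, and 0 changed direction. The rises of ROPN1 and ROPN1B in WWOX cells were called under all 22, but with the mean of its 3 probe sets that of ROPN1 was 4.12 against EV cells and 3.18 against WFPA cells. The rise of ROPN1 between EV and WFPA cells was under 2-fold with the probe set of largest variance (0.98) and with the mean of its probe sets (0.94). The plain 1-way model ended both calls of SSX1 (adjusted p = 0.0508 and 0.0749). The 3 called falls of GAGE probe sets in WWOX cells against the mean of EV and WFPA cells lost the call under 3, 4 and 8 settings. Correlations of same-numbered arrays, after removal of group means, were -0.052 to 0.035, and those of differently numbered arrays -0.089 to 0.085. These correlations cannot tell whether same-numbered arrays were handled together. With the replicate number as a block the counts stayed at 3, 5, 3 and 4. For SSX1 the block lowered the SE between WWOX and WFPA cells from 0.303 to 0.168. Levels under the lower quartile leave the size of a change open, and no depth is known for arrays.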
